A study of Homo sapiens with 4 samples.

Results

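A set of 10 genes that describe the epithelial or mesenchymal state of a cell were followed across 4 human hepatoma libraries. They are the cadherin genes CDH1 and CDH2, the filament and matrix genes VIM and FN1, the transcription factor genes SNAI1, SNAI2, ZEB1, ZEB2 and TWIST1, and the splicing regulator gene ESRP1. They were chosen by symbol, 10 of 16370 genes that had a read in at least 1 library. Of these, 6 (CDH1, CDH2, VIM, FN1, SNAI1 and ZEB1) were listed for both parental lines, 3 (SNAI2, ZEB2 and ESRP1) for Hep3B only and 1 (TWIST1) for Huh7 only. A gene that was not listed for a line had 0 counts in both of its libraries.

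Hep3B and Huh7 are hepatoma cell lines, grouped as hepatocellular carcinoma cells (HCC), without further treatment in the labels. Each gave rise to a stem-like line, Hep3B-C or Huh7-C, and these form the group of hepatic cancer stem cells (HCSC). From the total RNA of each line 1 mRNA library was sequenced, so nothing measured the spread between cultures, and every interval or FDR within a parental line covers counting error only. Values are counts per 1000000 gene counts (CPM), and levels are compared between genes as RPKM, which also divides by gene length.

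In epithelial-mesenchymal transition (EMT), cells held in sheets by E-cadherin (the product of CDH1) loosen those contacts and take up a motile form with N-cadherin (CDH2), the intermediate filament vimentin (VIM) and fibronectin (FN1). The SNAI, ZEB and TWIST proteins are transcription factors that bind E-box sequences and repress CDH1, while ESRP1 keeps epithelial splice forms in place. Hepatocytes are epithelial cells that make both cadherins and secrete fibronectin into plasma, so CDH2 and FN1 mark mesenchymal cells less sharply in liver than elsewhere.

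Total gene counts lay between 2896418 in Hep3B and 4641927 in Hep3B-C, and 3 counts, taken as the smallest level a library could show, stood between 0.646 and 1.04 CPM. All 13 hepatocyte markers had more than 3 counts in each library. AFP, which Huh7 is known for secreting, had 26 counts in Huh7 and 12 in Huh7-C, against 16175 in Hep3B and 4201 in Hep3B-C. Labels were kept, and Huh7 and Huh7-C mean the libraries so labelled. Of the markers of other cell types, PTPRC (leukocytes), CDH5 (endothelium) and DCN (fibroblasts) had 0 counts in all 4 libraries. The 9 fibroblast markers had 43 to 205 counts in sum, mostly PDGFRB or COL3A1, and at most 3 of them had more than 3 counts in a library. The 7 endothelial markers summed to 16 to 103 counts, and the leukocyte markers to 830 to 2093, mostly LYZ and CD68.

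The promoters of the genes that stand out in each line are given first, because E-boxes are the sites that SNAI and ZEB proteins recognise. RefSeq windows (GRCh38.p14, 250 bases before to 50 after a start) were at hand for 5 of the genes, CDH2, VIM, FN1, ZEB1 and ZEB2. VIM is shown because it was called down in Hep3B-C with total counts, with TMM and with GC and length trends removed, and ZEB1 as the gene called up in Huh7-C. Capitals mark CAGGTG, or CACCTG, its form on the opposite strand. Both windows lie on the plus strand, VIM at chr10:17227991-17228290 and ZEB1 at chr10:31318966-31319265.
VIM: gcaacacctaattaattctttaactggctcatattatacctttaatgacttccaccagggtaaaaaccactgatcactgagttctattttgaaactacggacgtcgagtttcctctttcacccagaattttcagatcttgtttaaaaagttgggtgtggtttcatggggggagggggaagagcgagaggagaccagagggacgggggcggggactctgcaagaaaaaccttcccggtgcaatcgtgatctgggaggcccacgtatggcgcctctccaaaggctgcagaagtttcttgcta
ZEB1: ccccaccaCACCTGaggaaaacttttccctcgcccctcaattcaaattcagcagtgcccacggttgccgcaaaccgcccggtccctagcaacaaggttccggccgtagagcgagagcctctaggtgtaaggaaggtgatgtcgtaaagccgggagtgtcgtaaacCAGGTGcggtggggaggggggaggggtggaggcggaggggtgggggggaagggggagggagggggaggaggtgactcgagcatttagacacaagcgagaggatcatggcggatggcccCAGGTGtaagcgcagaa

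This ZEB1 window held 3 matches, with first bases at -242, -85 and 34 relative to the start, and was picked from 7 windows of the gene because it held the most. Another ZEB1 window held 1 match, at -57. The windows of VIM, CDH2, FN1 and ZEB2 held none. Of 35116 promoter windows, 20.6% held at least 1 match and 3.49% held 2 or more. The broader E-box CANNTG, which includes these matches, was in 68.7% of windows and did not occur in the VIM window. A match is a run of letters, and binding was not measured.

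Both stem-like lines were set against their parental lines to ask which of these genes differ between stem-like and parental cells. In Hep3B-C, 5 of the 9 listed genes were called down, namely CDH1, CDH2, VIM, FN1 and ESRP1, and none up. A call needed an FDR of at most 0.01 in the Audic-Claverie test, an exact test of 2 counts under Poisson sampling, and a log2 ratio of at least 1 in size. By the same rule 30.4% of 15480 genes were called down and 13.2% up. In Huh7-C, ZEB1 was called up among 7 listed genes and none was called down, where 4.19% of 14807 genes were called up and 4.15% down. Only the 6 genes listed for both parental lines could be called in both pairs, and none was. The share of all genes called in both pairs was not computed, so this is not read as a trait of these genes. The test compares these libraries, not the conditions.

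CDH1 stood at 357 CPM in Hep3B against 110.3 in Hep3B-C, and at 116 in Huh7 against 175 in Huh7-C. Hep3B was thus the highest of the libraries, and Hep3B-C and Huh7 had overlapping counting intervals (101 to 120.3 and 106 to 127 CPM). In Hep3B-C CDH1 fell 3.24-fold (95% counting interval 2.91 to 3.61, FDR 6.7e-112). In Huh7-C the ratio was 1.51 in the other direction (1.35 to 1.69, FDR 3.7e-12), beyond counting error but under the 2-fold limit.

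CDH2 stood at 109 CPM in Hep3B against 52.3 in Hep3B-C, and at 66.1 in Huh7 against 66.7 in Huh7-C. Its range over the libraries was narrower than that of CDH1, and the Huh7 pair could not be told apart (ratio 1.01, interval 0.855 to 1.19). In Hep3B-C it fell 2.08-fold (1.75 to 2.47, FDR 3.4e-17). In Hep3B-C both cadherins were thus lower, and CDH2 was called up in neither stem-like line.

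The balance of the cadherins was also read within each library, where library size plays no part. Per length, CDH1 was 2.98 times CDH2 in Hep3B (2.62 to 3.39) and 1.91 times in Hep3B-C (1.64 to 2.24). The corresponding ratios were 1.59 in Huh7 (1.38 to 1.84) and 2.39 in Huh7-C (2.08 to 2.74). CDH1 was the higher of the cadherins in all 4 libraries. The ratio was lower in the stem-like line of Hep3B and higher in that of Huh7, and in neither pair did the intervals overlap. The intervals cover counting error only, and the ratios are not corrected for GC and length trends. With these removed, the log2 ratio in Hep3B-C was -0.57 for CDH1 and 0.37 for CDH2.

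VIM separated Hep3B-C from the other libraries. It stood at 498 CPM in Hep3B against 65.5 in Hep3B-C, and at 752 in Huh7 against 729 in Huh7-C. The fall in Hep3B-C was 7.61-fold (6.72 to 8.64), and 5.39% of 11433 genes with at least 20 counts had a lower log2 ratio. In Huh7-C the ratio was 0.970 (0.924 to 1.02, FDR 0.4). Per length, VIM exceeded CDH1 in every library, at 3.14 times its level in Hep3B and 1.34 times in Hep3B-C, against 14.6 times in Huh7 and 9.37 times in Huh7-C. On this scale the library in which VIM came closest to CDH1 was therefore a stem-like one. RPKM is not corrected for the GC and length trends of the Hep3B pair. With these removed, the log2 ratio in Hep3B-C was -3.18 for VIM and -0.57 for CDH1. The order of VIM and CDH1 in Hep3B-C may thus depend on the scaling.

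FN1 was the most abundant of the 10 genes in each library per length, at 608 RPKM in Hep3B against 229.8 in Hep3B-C, and 473.5 in Huh7 against 510.5 in Huh7-C. On the CPM scale it stood at 5352, 2022, 4166 and 4492 in the same order. It fell 2.65-fold in Hep3B-C (2.58 to 2.72). In Huh7-C the ratio was 1.08 (1.06 to 1.10, FDR 2.6e-12), a difference that many reads resolve but that is far under the 2-fold limit.

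**Figure D1:**
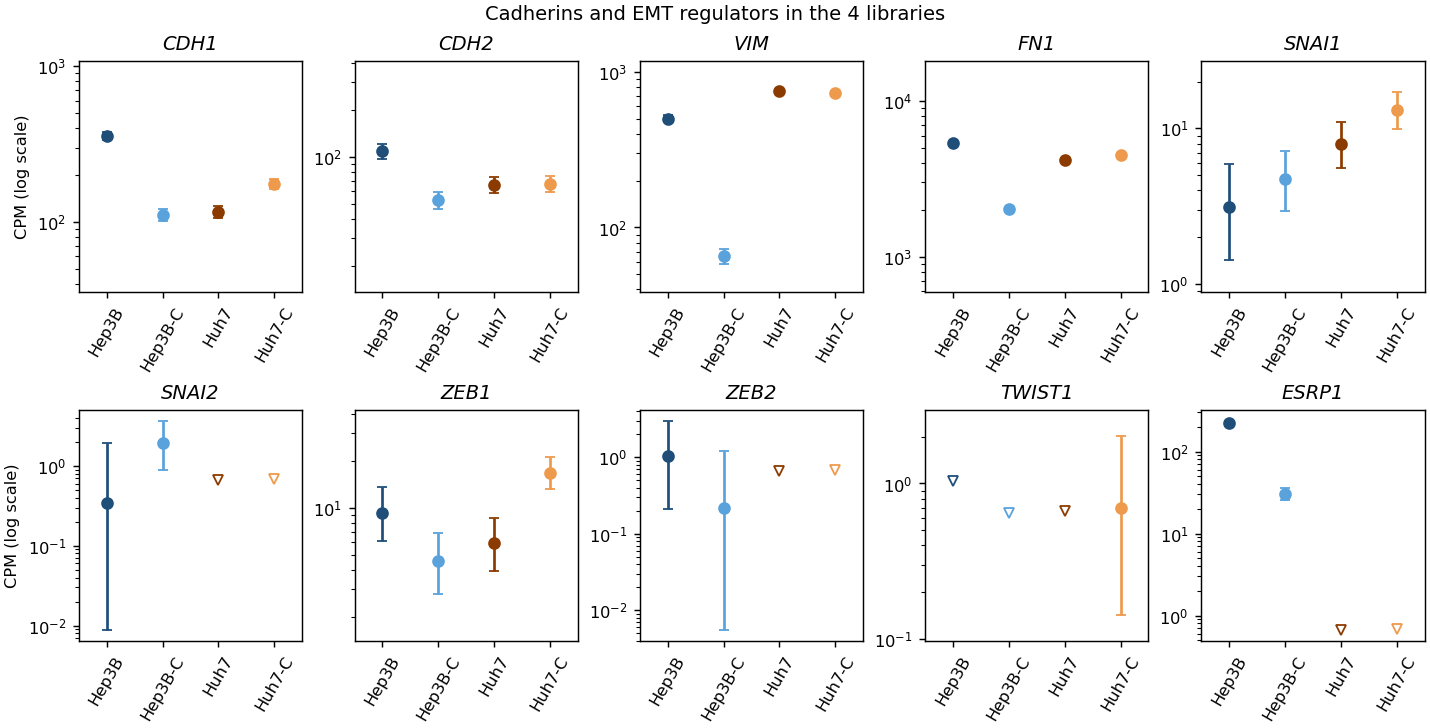
Level of each gene in the 4 libraries, in CPM on a log axis, with the exact 95% Poisson interval of the count as bars. Open triangles mark 0 counts and are drawn at the level of 3 counts. VIM is low only in Hep3B-C (65.5 CPM against 498 to 752 in the others), and ESRP1 has 0 counts in Huh7 and Huh7-C.

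The transcription factors were low throughout. SNAI1, which encodes Snail, had 9 counts in Hep3B against 22 in Hep3B-C, and 36 in Huh7 against 57 in Huh7-C, or 3.11, 4.74, 7.93 and 13.2 CPM. The HCSC line had the higher value in each pair, with ratios of 1.53 (0.675 to 3.76, FDR 0.44) and 1.66 (1.07 to 2.59, FDR 0.06), and neither was called. SNAI2, which encodes Slug, had 1 count in Hep3B and 9 in Hep3B-C, a ratio of 5.62 with an interval from 0.778 to 246, and 0 in both Huh7 libraries. At this depth a change of SNAI2 was not detectable.

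ZEB1, which encodes a zinc finger repressor of epithelial genes, had 27 counts in Hep3B against 21 in Hep3B-C, and 27 in Huh7 against 73 in Huh7-C. Its levels were 9.32, 4.52, 5.95 and 16.8 CPM, so that Huh7-C was highest. It rose 2.83-fold in Huh7-C (1.80 to 4.58, FDR 1.0e-05), and 98.0% of 11134 genes with at least 20 counts had a lower log2 ratio. CDH1, which ZEB1 is known to repress, was also higher in Huh7-C than in Huh7. In Hep3B-C the ratio of ZEB1 was 0.485 (0.261 to 0.891, FDR 0.02), which was not called.

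ZEB2 had 3 counts in Hep3B, 1 in Hep3B-C and 0 in both Huh7 libraries, and TWIST1 had 3 in Huh7-C and 0 in the others. A count of 0 allows up to 3 counts, or 0.661 CPM in Huh7 and 0.692 in Huh7-C, so these genes were at or under the smallest level that could be shown, and no ratio is given. Per length, ZEB1 was the only ZEB or TWIST gene above 0.5 RPKM in any library.

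ESRP1, an RNA-binding protein that keeps epithelial exons of genes such as FGFR2 and CD44, split the lines. It stood at 220.3 CPM (638 counts) in Hep3B and 30.2 CPM (140 counts) in Hep3B-C, a 7.30-fold fall (6.07 to 8.83, FDR 9.2e-136). In Huh7 and Huh7-C it had 0 counts. Hep3B was at least 333-fold above Huh7, and Hep3B-C at least 43.6-fold above Huh7-C, with the low line set at 3 counts. Relative to CDH1 per length, ESRP1 was 0.780 in Hep3B and 0.346 in Hep3B-C (intervals 0.705 to 0.862 and 0.285 to 0.418, which do not overlap). Its paralog ESRP2, named after its values were seen, had 53.9 CPM in Hep3B against 54.5 in Hep3B-C, and 62.6 in Huh7 against 52.4 in Huh7-C, and was called in neither pair. Splice forms cannot be read from counts per gene.

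Hep3B-C differed from Hep3B in a way that went across the transcriptome. Across 12228 genes the log2 ratio rose with GC content (Spearman 0.606) and fell with gene length (-0.409), while in the Huh7 pair the coefficients were -0.056 and 0.292. The genes followed here ranged in GC content from ZEB1 (6023 bases, 40.1%) to SNAI1 (1692 bases, 58.2%). For the GC content and length of CDH1 the smooth trend alone gave a log2 ratio of -1.12, for CDH2 -1.42, for FN1 -1.32 and for ESRP1 -1.51, against 0.25 for VIM. The part of these trends in the differences was not tested.

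With the trends taken off, VIM had a log2 ratio of -3.18 and ESRP1 one of -1.35 in Hep3B-C, and both were still called. CDH1 came to -0.57 and FN1 to -0.08, both under the limit, and CDH2 changed sign to 0.37. ZEB1, not called before, changed sign from -1.04 to 0.91, and SNAI1 from 0.56 to -0.29. Genes called down then made up 10.9% of all genes tested, and genes called up 12.5%. TMM library sizes left CDH1, VIM and ESRP1 called (log2 ratios of -1.10, -2.33 and -2.27), with 18.1% of all genes down and 21.6% up. In Huh7-C the call of ZEB1 was kept with the trends removed (1.21, where 2.99% of all genes were up and 4.07% down) and with TMM (1.44, where 3.73% were up and 4.46% down).

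**Figure D2:**
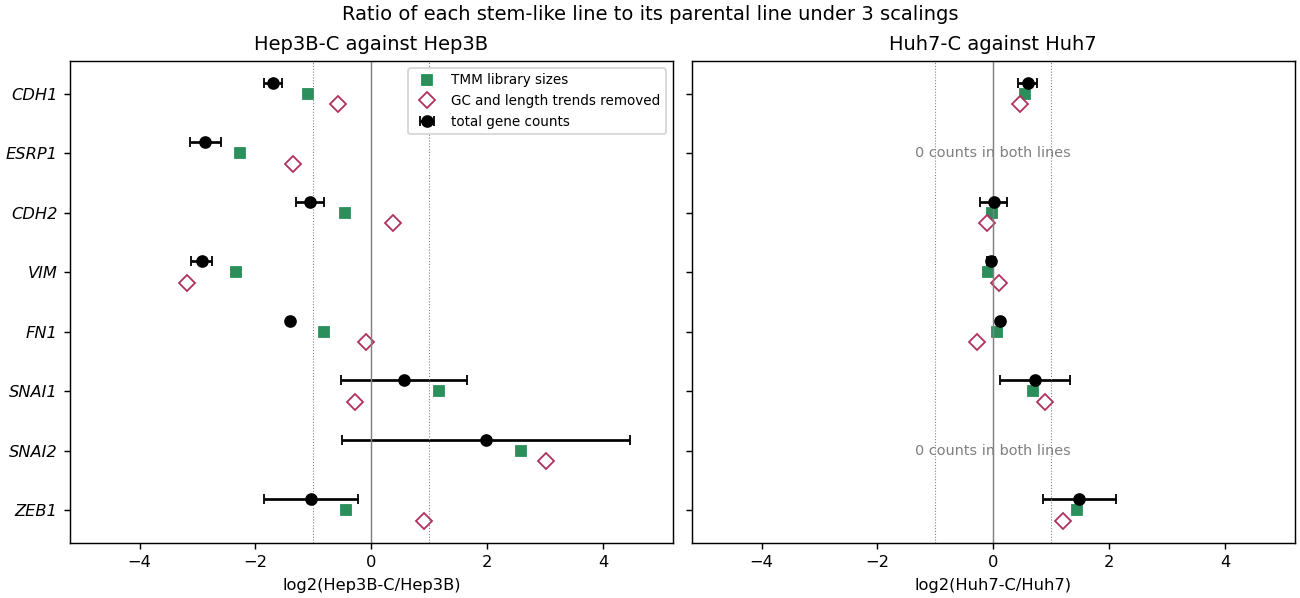
Log2 ratio of each HCSC line to its parental line for the 8 genes with more than 3 counts in a library. Circles show ratios of total gene counts with 95% intervals from the counting error as bars, squares TMM library sizes, diamonds GC and length trends removed, and dotted lines the 2-fold limits. In Hep3B-C, VIM and ESRP1 lie beyond the lower limit under all 3, whereas CDH2, FN1 and CDH1 do not. SNAI2 lies beyond the upper limit under all 3 but rests on 1 and 9 counts and was not called.

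**Figure D3:**
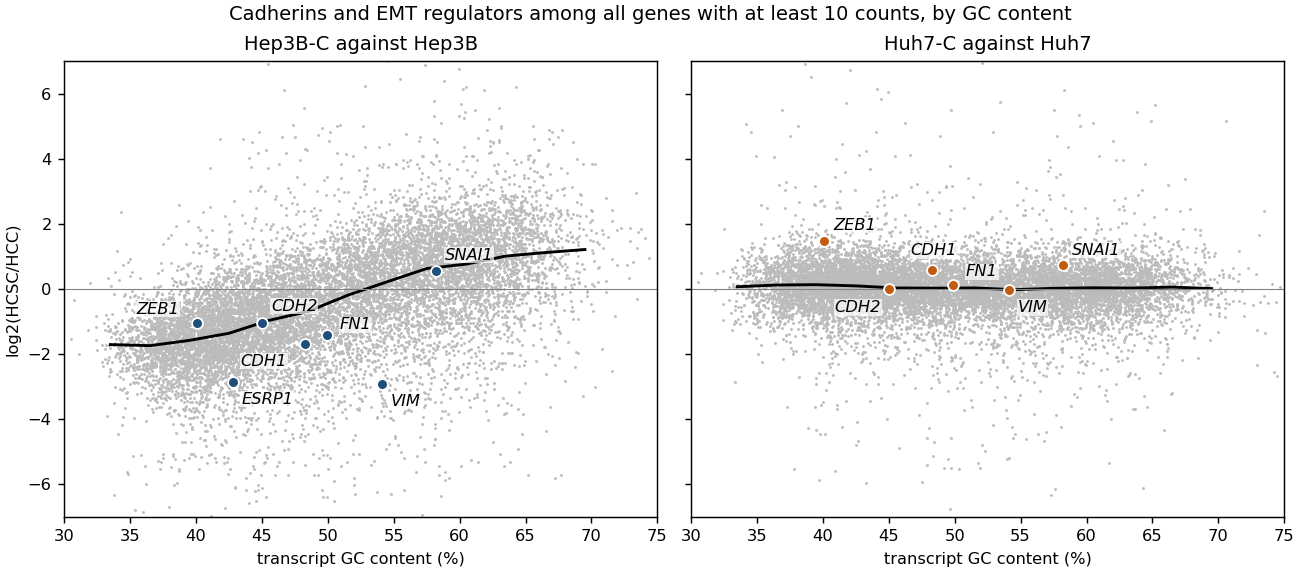
Log2 ratio (HCSC/HCC) against transcript GC content in percent for genes with at least 10 counts in a pair (grey), with the median in bins of GC content (line) and the genes followed here (circles). In the Hep3B pair CDH2, ZEB1 and SNAI1 lie near the line, and VIM, at 54.1% GC, lies far under it.

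A further limit is the missing spread between cultures. If a biological coefficient of variation of 0.4 is assumed in place of counting error alone, none of the 10 genes was called in either pair. VIM then had an adjusted p of 0.032 and ESRP1 one of 0.036 in Hep3B-C (exact negative binomial test in edgeR), with 1.09% of all genes called down and 0.401% up. In Huh7-C 0.081% were then called down and 0.0878% up.

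HCSC and HCC were next compared over all 4 libraries, with the parental line as a block, to ask which differences exceed the disagreement of the pairs. None of the 7 genes that could be tested was called by edgeR at an adjusted p of 0.05, where 0.0342% of 11691 genes were called up and 0.0428% down. ESRP1 alone had an unadjusted p under 0.05, with an adjusted p of 1, and DESeq2 called none and had none under 0.05. The fitted log2 differences were -1.31 for VIM, -0.48 for FN1, -0.38 for CDH1 and -0.35 for CDH2, all with an adjusted p of 1. SNAI1 and ZEB1 had 0.82 and 0.43 (adjusted p of 1). ESRP1 had no counts in Huh7 or Huh7-C, so its difference rested on the Hep3B pair alone. The fit leaves 1 residual degree of freedom.

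In the same fit the Hep3B lines (Hep3B and Hep3B-C) were set against the Huh7 lines (Huh7 and Huh7-C). ESRP1 was higher in the Hep3B lines (adjusted p 9.4e-10 in edgeR), as 1 of the 7 genes tested, against 4.82% of all genes called higher and 3.65% called lower. DESeq2 gave ESRP1 an adjusted p of 0.11. VIM had a log2 difference of -2.01 without passing (adjusted p 0.25 in edgeR), and both Hep3B libraries lay under both Huh7 libraries. Fits with a library left out had no group term and are given as effect sizes only. Without Hep3B, which leaves Hep3B-C as the only Hep3B line, the log2 difference of VIM was -3.31. Without Hep3B-C it was -0.80. CDH1, CDH2, FN1, SNAI1 and ZEB1 had adjusted p-values from 0.57 to 0.96.

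Other genes of the same biology were read from lists that were chosen with earlier results of these data known. In Hep3B-C, 10 of 28 listed other cadherins (35.7%) were called down, close to the 30.4% over all genes. Another 6 (21.4%) were called up, against 13.2% of all genes. CDH6, a cadherin of kidney and fetal tissue, fell from 90.1 to 2.80 CPM, and the protocadherin PCDH17 from 19.0 to 0.646 CPM. The desmosomal cadherins DSG2 and DSC2 fell from 214.7 to 56.2 and from 50.8 to 9.48 CPM, with log2 ratios of -0.14 and -0.43 once the trends were removed. CDHR2, a cadherin of the microvillar brush border, rose from 3.80 to 33.8 CPM. PCDH1 rose from 0 to 56 counts, at least 11.6-fold. In Huh7-C, 4 of 24 were called up (16.7%) and 1 down (4.17%), against 4.19% and 4.15% of all genes. FAT1, a giant cadherin, rose from 81.3 to 389 CPM and DSC3 from 3.09 to 21.0 CPM. CDH24 was called up and PCDH17 down in both pairs. With the trends removed CDH24 had a log2 ratio of 0.60 in Hep3B-C, under the limit. The call of PCDH17 in Huh7-C was lost with an exact binomial test. With the trends removed 4 of the 28 were called down and 3 up in Hep3B-C, against 10.9% and 12.5% of all genes.

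Among 18 listed genes of the cadherin-catenin and desmosomal plaque, 7 were called down (38.9%) and 1 up in Hep3B-C, against 30.4% and 13.2% of all genes. The desmosomal linker DSP fell from 2799 to 437 CPM, the afadin gene MLLT4 from 777 to 184 CPM, CTNND2 (delta-catenin) from 136 to 37.1 CPM, PKP4 from 212 to 61.0 CPM and CTNND1 (p120-catenin) from 579.7 to 211 CPM. PKP3, a desmosomal plakophilin, rose from 1.38 to 37.7 CPM. After removal of the trends 2 of the 18 were called down, DSP and CTNND2, against 10.9% of all genes. The calls of MLLT4, PKP4 and CTNND1 were lost. In Huh7-C 1 of 18 was called up and none down, against 4.19% and 4.15% of all genes.

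Among 34 listed other epithelial genes, 11 were called down (32.4%) and 3 up in Hep3B-C, against 30.4% and 13.2% of all genes. With the trends removed 9 of the 34 were called down, 5 of them from the 11, against 10.9% of all genes. Transcripts of the simple keratin KRT18 rose from 657 to 2584 CPM, while those of KRT19, a biliary and progenitor keratin, fell from 73.2 to 19.0 CPM. The tight junction genes CLDN1 and TJP1 fell from 745 to 146 and from 236 to 71.3 CPM, and CLDN4 rose from 0 to 58 counts. With the trends removed CLDN1 and TJP1 had log2 ratios of -0.82 and -0.04, both under the limit. KLF5, an epithelial transcription factor, fell from 24.2 to 2.59 CPM in Hep3B-C and rose from 81.1 to 212 CPM in Huh7-C. Of 32 such genes listed for Huh7-C, 3 were called up (CLDN4, KLF5 and TJP3) and none down, against 4.19% and 4.15% of all genes. The call of TJP3 was lost with the trends removed.

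Of 26 other mesenchymal genes listed in the Hep3B pair, 11 were called down (42.3%) and none up, against 30.4% and 13.2% of all genes. With the trends removed 9 were called down, 8 of them from the 11, against 10.9% of all genes. In Huh7-C 8 of 27 were called down (29.6%) and 1 up, against 4.15% and 4.19% of all genes. All 8 genes called down kept the call with the trends removed, where 4.07% of all genes were called down. LOX, a collagen crosslinking enzyme, fell from 356 to 13.6 CPM in Hep3B-C and, in the Huh7 pair, from 27.1 to 13.2 CPM. TGFBI, a matrix protein induced by TGF-beta, fell from 395 to 98.9 and from 473 to 46.8 CPM. CAV1, which encodes caveolin-1, fell from 34.9 to 3.66 and from 15.9 to 4.61 CPM, and TPM1 (tropomyosin) from 127 to 40.1 and from 178 to 69.0 CPM. In Hep3B-C the integrin genes ITGB1 and ITGAV (869.7 to 119.6 and 181 to 30.6 CPM) fell as well. With the trends removed their log2 ratios were -1.16 and -0.43, the latter under the limit. In Huh7-C PDGFRB (41.0 to 0.461 CPM), CD44 (39.0 to 5.08 CPM) and MYL9 (19.8 to 5.77 CPM) fell. COL3A1 rose there from 0 to 58 counts, at least 20.2-fold, while COL1A1 had 18 and 7 counts. With the assumed coefficient of variation of 0.4, 1 of these mesenchymal genes was called down in each pair, against 1.09% of all genes in Hep3B-C and 0.081% in Huh7-C, and 1 was called up in Huh7-C, against 0.0878%.

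Of 25 listed other EMT transcription regulators, 14 (56.0%) were called down and 1 up in Hep3B-C, against 30.4% and 13.2% of all genes. With the trends removed 7 were called down, all from the 14, against 10.9% of all genes. ID1 and ID2, inhibitors of basic helix-loop-helix factors such as TWIST1 and TCF3, fell in both pairs. ID1 went from 79.4 to 0.862 CPM in Hep3B-C and, in the Huh7 pair, from 184 to 77.5 CPM, and ID2 from 333 to 18.5 and from 93.0 to 21.5 CPM. CTBP2, a corepressor that ZEB proteins recruit, fell from 46.6 to 5.39 CPM in Hep3B-C and rose from 2 to 49 counts in Huh7-C. In Hep3B-C TBX3 fell from 40.4 to 7.32 CPM and HMGA2 from 425 to 111 CPM. TCF12 went down in Hep3B-C, from 491 to 151 counts, and up in Huh7-C, from 164 to 316. The calls of HMGA2 and of TCF12 in both pairs were lost with the trends removed. Among 11 splicing factors linked to EMT, QKI, MBNL1, MBNL2 and RBFOX2 were called down in Hep3B-C (36.4%, against 30.4% of all genes). With the trends removed none of the 11 was called down and 2 were called up, against 10.9% and 12.5% of all genes. MBNL1 was called up in Huh7-C, a call also lost with the trends removed.

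**Figure D4:**
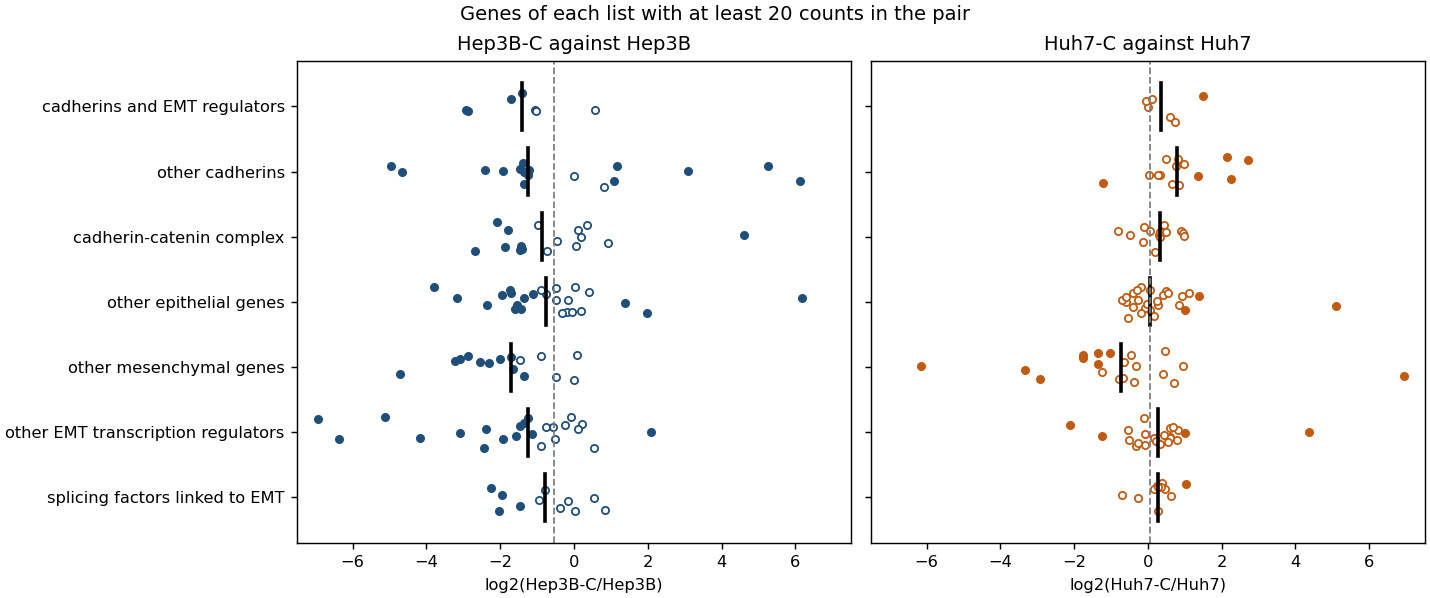
Log2 ratio of each HCSC line to its parental line for genes with at least 20 counts in the pair, by list. Filled points were called, open points were not, bars are list medians and the dashed line is the median of all genes. For other mesenchymal genes the bar lies at -1.71 in the Hep3B pair and at -0.72 in the Huh7 pair, where all genes have medians of -0.55 and 0.06.

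The lists were also read in the contrast of the Hep3B lines with the Huh7 lines. Of the tested genes, 5 of 27 other epithelial genes were higher and 3 lower in the Hep3B lines, and 2 of 19 other mesenchymal genes were higher and 5 lower (edgeR), against 4.82% and 3.65% of all genes tested. Genes named here were chosen after their values were seen. SPINT1, an inhibitor of epithelial serine proteases, had 597 and 510 counts in Hep3B and Hep3B-C, and 7 and 0 in Huh7 and Huh7-C (adjusted p 1.3e-08 in edgeR). In the same order, AXL, a receptor kinase often linked to EMT, had 4, 4, 1114 and 853 counts (adjusted p 2.6e-08), and CD44 had 0, 0, 177 and 22 (adjusted p 8.8e-06). CDH6 had 261, 13, 0 and 0 counts (adjusted p 1.3e-06) and CDH17, a liver-intestine cadherin, had 2, 0, 158 and 191 (adjusted p 2.2e-06).

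Genes with profiles closest to the cadherins were found by Euclidean distance between centred log2(CPM + 1) values over the 4 libraries, among 10153 genes with at least 100 counts. Nearest to CDH1 were OSBPL3 (distance 0.0603), DUSP16 (0.0817) and LASS6 (0.0879), and nearest to CDH2 were ARNT (0.0421), SH2B3 (0.0652) and UBTD2 (0.0665).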

How the data were processed

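RNA-seq libraries of Hep3B, Hep3B-C, Huh7 and Huh7-C were analysed, 1 per cell line. The authors used NextGENe and NCBI Build 36.1 for alignment, after a filter on read quality and adapters, and deposited raw read counts per gene, with gene lengths. The version, annotation and handling of reads with several matches were not given in the sources used here, so near-identical genes may share reads. Genes were joined by Entrez ID and matched by symbol.

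CPM, RPKM and ratios were computed from total gene counts, with 0.5 added to each count for log2 ratios and standard errors only, and none for printed fold ratios (exact 95% binomial intervals). Without molecular identifiers, reads are not independent molecules, so intervals and floors cover counting error only. Pairs were compared by the Audic-Claverie test with Benjamini-Hochberg FDR over all genes of the pair (FDR at most 0.01, log2 ratio at least 1). All 4 libraries were fitted with edgeR 4.0.16 (TMM, filterByExpr, quasi-likelihood, parental line and group as terms, 1 residual degree of freedom). The pairing is by parental line, from the labels, and the departures from the group mean of the Hep3B lines correlated across 11691 genes (Pearson 0.644, genes are not replicates).

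GC content came from GENCODE release 29 transcripts, joined by Entrez ID (98.7% and 99.0% of genes with at least 10 counts in the Hep3B and Huh7 pairs). Trends were natural splines with 5 degrees of freedom each. Alternatives are given in the closing section. Both tests were also run on simulated counts, with Poisson counts for the Audic-Claverie test. Those for edgeR had no difference between parental lines and a coefficient of variation smaller than the 0.514 fitted to these libraries. These runs checked the code and do not show how the tests behave on these libraries. Members and lists were chosen with earlier results of these data known. Named list genes were those called with at least 50 counts, up to 6 per list and pair by size of log2 ratio, and those called alike in both pairs. Analyses used Python 3.11.15, scipy 1.17.1, R 4.3.3 and DESeq2 1.42.0. A gene that the naming rule selects is not reported here.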

Additional observations from a re-analysis of the deposited data

Results flagged for a closer look

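Log2 ratios of opposite sign in the 2 HCSC lines were found for 4 of the 6 genes listed for both lines. Genes with at least 20 counts had median log2 ratios of -0.55 in the Hep3B pair and 0.06 in the Huh7 pair. The share of all genes with opposite signs was not computed, so the 4 are not read as particular to this set. Each line is 1 library, and the difference was not tested against replicates. The log2 ratio in Hep3B-C minus that in Huh7-C was -2.29 for CDH1, -1.07 for CDH2, -1.51 for FN1 and -2.52 for ZEB1, with standard errors of counting of 0.11, 0.17, 0.02 and 0.53. After removal of the GC and length trends the differences were -1.04 for CDH1, 0.48 for CDH2, 0.19 for FN1 and -0.30 for ZEB1. FN1 (-0.08 and -0.28) and ZEB1 (0.91 and 1.21) then had the same sign in Hep3B-C and Huh7-C. CDH2 in Huh7-C had a log2 ratio of 0.01, within counting error of 0.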

How the results depend on the processing

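In the Hep3B pair the 5 genes called down became 3 with TMM library sizes, 3 with DESeq2 size factors, 2 with the GC and length trends removed and 0 with an assumed coefficient of variation of 0.4, which also ended the 1 call in Huh7-C (0 left). Adding 5 to each count, a minimum of 10 counts in the pair and an exact binomial test left these counts as they were. Signs turned with the trends removed for CDH2 (0.37), SNAI1 (-0.29) and ZEB1 (0.91) in Hep3B-C, and for CDH2 (-0.11), VIM (0.10) and FN1 (-0.28) in Huh7-C, where CDH2 also turned with TMM (-0.029) and DESeq2 size factors (-0.054). The cause was not tested.

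Over all 4 libraries the absence of calls between HCSC and HCC held under DESeq2, RLE or total-count scaling, no filter and no replicate block (0 called). Leaving out each library in turn, without the block, gave 0 to 1 genes called down. The 1 was ESRP1 without Hep3B-C, which leaves Hep3B as the only library with reads of it. Between the lines, ESRP1 was lost under DESeq2 (0 called up). Leaving out each library there also dropped the group term and left a lone library for 1 parental line, so only log2 differences are given. The log2 differences (HCSC/HCC) without 1 library ran from -1.02 to 0.34 for CDH1, -3.01 to 0.27 for VIM, -0.95 to 0.009 for FN1, -0.011 to 1.79 for SNAI1, -0.46 to 1.24 for ZEB1 and -11.58 to 9.21 for ESRP1. Those of the Hep3B against the Huh7 lines ran from -0.21 to 1.07 for CDH1, -0.15 to 0.48 for CDH2, -3.31 to -0.80 for VIM, -0.91 to 0.074 for FN1 and -1.35 to 0.11 for ZEB1. A lone library was assumed to vary like the others. Genes with under 10 counts (SNAI2, ZEB2 and TWIST1) are limited by depth.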
